A study of Mus musculus with 2 samples.

Results

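The S100 genes encode small calcium-binding proteins, and 10 of them were followed here across the stromal, muscle and blood cells of an intact mouse femur and of a fracture callus: *S100a1*, *S100a4*, *S100a6*, *S100a8*, *S100a9*, *S100a10*, *S100a11*, *S100a13*, *S100a16* and *S100b*. They were taken by symbol from the 32285 genes of both count matrices, and the list was chosen with earlier results of these data known. The S100 genes left out of it gave at most 29 UMIs in a library (*S100a5* in callus). Single cells had been collected from Clec3b.creERT2; Ai14.R26.tdTomato mice, in which a tamoxifen-inducible Cre recombinase expressed from the *Clec3b* gene switches on the red protein tdTomato, and tdTomato+ cells had been sorted before capture. Surgery was at 6 weeks of age, 2 weeks after tamoxifen, and tissue was taken 3 weeks after surgery from 3 male littermates. One library (treatment "None") held intact femoral shafts with the muscle around them and the other (treatment "Fracture") held calluses with theirs, each pooled over the 3 mice before the sort. A library was therefore a single sample of its condition. No difference between the libraries could be tested, and every interval below covers counting error within a library only.

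Of 1872 barcodes in the intact library and 3987 in the callus library, 1207 and 3295 were kept, those with 500 or more genes detected and with mitochondrial genes making up no more than 10% of their UMIs (unique molecular identifiers, 1 per captured transcript), with median totals of 4939 and 6843 UMIs per cell. A single barcode occurred in both libraries. *Xist*, the RNA of the inactive X chromosome, was seen in 197 of 202 intact and 155 of 158 callus fibroblasts of at least 5000 UMIs, while 7 Y-linked genes together gave 1 and 0 UMIs in all kept cells, which goes against the label of male mice. Blood cell types made up 58.0% of kept intact cells and 67.5% of kept callus cells, although tdTomato+ cells had been sorted. *Clec3b* itself gave 22 UMIs in the 700 intact blood cells against 3021 in 287 fibroblasts, and 34 in the 2224 callus blood cells against 2266 in 210 fibroblasts. The S100 values of blood cells below are thus values of cells that carried next to no *Clec3b* transcript.

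S100 proteins carry a pair of EF-hand calcium-binding loops and act mostly as dimers that grip other proteins when calcium rises. *S100a8* and *S100a9* form calprotectin, the main soluble protein of neutrophils, which binds zinc, manganese and calcium and starves microbes of metals. *S100a10*, also called p11, no longer binds calcium and instead joins annexin A2 at membranes, *S100a6* and *S100a11* also bind annexins, *S100a4* binds non-muscle myosin and has long been used as "fibroblast-specific protein", *S100a1* regulates calcium release in striated muscle, *S100a13* takes part in the unconventional export of the growth factor *Fgf1*, and *S100b* is best known from glia, cartilage and fat.

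In the mouse genome, 9 of the 10 genes lie on chromosome 3 and *S100b* lies on chromosome 10 (GRCm38, positions 76253853 to 76261159). Of these, 7 sit within a stretch of 185 kb that runs from *S100a1* (chr3:90511034-90514392, minus strand) through *S100a13* (chr3:90514435-90524581), *S100a16* (chr3:90537254-90543151), *S100a4* (chr3:90603771-90606045), *S100a6* (chr3:90612882-90624181) and *S100a8* (chr3:90668978-90670035) to *S100a9* (chr3:90692632-90695721, minus strand). *S100a11* (chr3:93520488-93526287) and *S100a10* (chr3:93555080-93564643) lie 2825 kb further on. *S100a8* and *S100a9* are 22596 bases apart and are transcribed toward each other, whereas *S100a1* and *S100a13* are transcribed away from each other with only 42 bases between their starts.

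The bases just before the gene starts are shown for neighbours whose levels turned out to differ by cell type. RefSeq promoter windows (GRCm38.p6) were found for 9 of the 10 genes, *S100a10* being without one, and were trimmed to what precedes the annotated start. Capitals mark matches to the letters searched on both strands: the TATA box letters TATAAA, the C/EBP letters TTNNGCAA and the PU.1 letters GAGGAA, 3 motifs that do not overlap in these stretches.
S100a8, chr3:90668821-90668977, plus strand: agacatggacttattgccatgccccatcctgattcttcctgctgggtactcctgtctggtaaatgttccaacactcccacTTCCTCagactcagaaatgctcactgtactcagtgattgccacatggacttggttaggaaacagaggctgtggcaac
S100a9, chr3:90695722-90695971, minus strand: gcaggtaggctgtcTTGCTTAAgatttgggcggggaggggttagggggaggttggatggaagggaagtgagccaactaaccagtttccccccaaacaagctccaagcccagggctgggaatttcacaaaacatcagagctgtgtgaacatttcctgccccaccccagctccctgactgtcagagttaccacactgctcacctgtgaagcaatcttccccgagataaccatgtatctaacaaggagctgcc
S100a4, chr3:90603520-90603770, plus strand: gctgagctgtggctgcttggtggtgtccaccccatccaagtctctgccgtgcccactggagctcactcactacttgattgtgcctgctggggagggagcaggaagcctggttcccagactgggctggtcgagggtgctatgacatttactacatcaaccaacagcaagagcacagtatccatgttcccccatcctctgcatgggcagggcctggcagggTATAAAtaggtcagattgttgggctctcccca
S100a6, chr3:90612644-90612881, plus strand: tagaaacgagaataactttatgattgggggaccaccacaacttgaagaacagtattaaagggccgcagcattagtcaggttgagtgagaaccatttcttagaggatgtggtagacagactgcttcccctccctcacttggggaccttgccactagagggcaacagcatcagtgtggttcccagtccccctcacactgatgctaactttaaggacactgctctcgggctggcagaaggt
S100a11, chr3:93520246-93520487, plus strand: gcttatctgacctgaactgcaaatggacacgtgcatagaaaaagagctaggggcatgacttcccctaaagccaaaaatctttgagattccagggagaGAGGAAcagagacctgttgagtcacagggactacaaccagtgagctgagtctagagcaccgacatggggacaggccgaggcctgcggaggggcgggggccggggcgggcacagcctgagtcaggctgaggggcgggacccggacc
between S100a1 and S100a13, chr3:90514393-90514434, plus strand: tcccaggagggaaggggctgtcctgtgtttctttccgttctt
The *S100a8* stretch held the PU.1 letters on the opposite strand 77 bases before the start, as did 15.3% of 32851 mouse promoter windows cut at the same place. The *S100a9* stretch held the C/EBP letters 236 bases before the start (9.56% of windows), *S100a4* a TATA box 32 bases before it (12.4%) and *S100a11* the PU.1 letters 145 bases before it (22.5%). The *S100a6* stretch and the 42 bases shared by *S100a1* and *S100a13* held none of the 3. *S100a11* was the one of the 6 stretches with many CG pairs, 9 in 242 bases, and *S100a8* had none in 157. These matches are letters only, and binding was not measured.

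Cells were assigned to types by marker lists that contained no S100 gene, which placed 1096 of 1207 intact cells and 2838 of 3295 callus cells. A cell needed at least 0.5 of a type's markers among 2000 of its UMIs. The types used most were neutrophils in 3 stages (51 immature, 168 intermediate and 85 mature in the intact library, 345, 275 and 97 in callus), granulocyte-monocyte progenitors (10 and 239), monocytes (48 and 323), macrophages (22 and 78), B cells (254 and 519), T cells (22 and 77), *Pi16*-type fibroblasts (224 and 146), *Col15a1*-type fibroblasts (39 and 17), endothelial cells (29 and 94) and myofibres (74 and 240). Callus alone gave at least 20 cells each of osteoblasts (28) and *Lepr* and *Cxcl12* expressing marrow stromal cells, labelled BMSC (36), while the intact library had 1 osteoblast and no BMSC. Levels are given as CPM, the UMIs of a gene summed over the cells of a type and scaled to a total of 1000000 UMIs, with exact Poisson 95% intervals. As the assay counts 1 tag per transcript at its 3′ end, they need no correction for gene length.

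The 10 genes divided these cells into a few sharp groups. *S100a8* and *S100a9* were neutrophil genes, *S100a6* was highest in late neutrophils and in fibroblasts, *S100a4* was highest in monocytes and macrophages, *S100a10* was present in stroma, lymphocytes and monocytes but nearly missing from neutrophils, *S100a13* and *S100a16* were highest in fibroblasts and endothelium, and *S100b* was counted mostly in BMSC and fibroblasts. In the intact library the 10 genes gave 10.8% of all UMIs and in callus 7.77%, of which *S100a8* and *S100a9* alone made 10.1% and 7.42%. Neutrophils held 97.6% of the *S100a8* UMIs and 98.0% of the *S100a9* UMIs in the intact library and 89.97% and 91.3% in callus, where progenitors held another 7.97% and 6.65%.

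**Figure D1:**
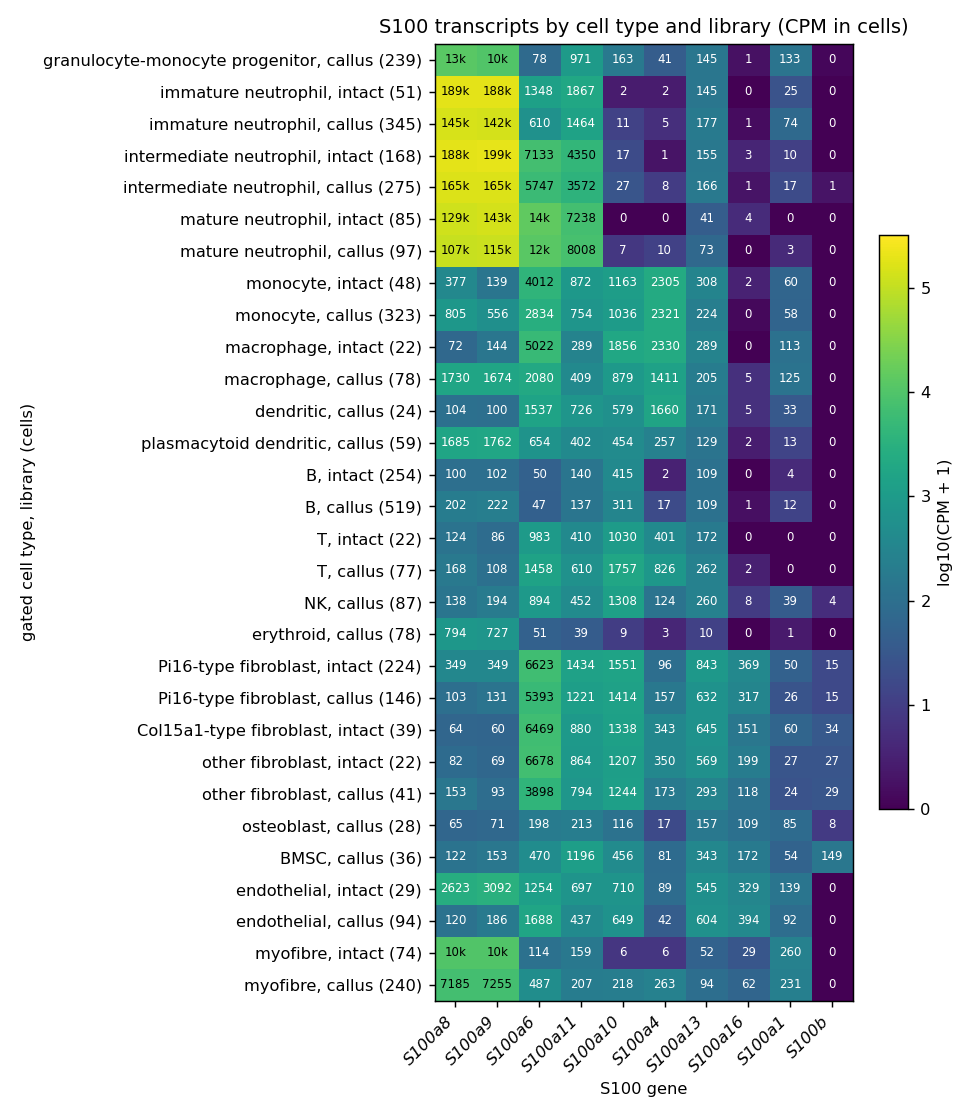
Levels of the 10 S100 genes in every gated cell type with at least 20 cells, intact and callus libraries side by side, as CPM on a logarithmic colour scale. Each row is a type in 1 library with its number of cells, and brighter colours stand for higher levels. The neutrophil rows are the brightest for *S100a8* and *S100a9* and dark for *S100a10*, *S100a4* and *S100a16*, while *S100a16* is brightest in the fibroblast and endothelial rows.

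Calprotectin transcripts took a large part of the summed UMIs at every neutrophil stage. In immature neutrophils *S100a8* was 189224 CPM in the intact library and 145253 CPM in callus, and *S100a9* was 188027 and 141668 CPM. Together the pair made 37.7% and 28.7% of all UMIs at that stage, 38.7% and 32.9% in intermediate neutrophils, and 27.1% and 22.2% in mature ones. This pair of genes thus gave more than 20% of the UMIs at every stage in both libraries. The medians over single cells were 40.1%, 39.0% and 26.6% for the 3 stages in the intact library and 30.6%, 34.3% and 21.1% in callus. Mature cells spread most widely: the middle 80% of the cells lay between 11.1% and 35.4% in the intact library, against 32.2% and 45.3% in immature cells. Of the 97 mature callus neutrophils, 16 had fewer than 100 UMIs of the pair, where the median total of all mature cells was 2735 UMIs. From immature to mature cells *S100a8* stood at 0.680 times (95% interval 0.671 to 0.688) its level in the intact library and 0.739 times (0.730 to 0.747) in callus, and *S100a9* at 0.760 times (0.751 to 0.768) and 0.811 times (0.802 to 0.820).

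The balance within the pair also moved with stage. *S100a8* UMIs stood to *S100a9* UMIs as 1.01, 0.947 and 0.9003 in immature, intermediate and mature neutrophils of the intact library and as 1.03, 1.00 and 0.934 in callus. In the intact library 54.9%, 25.0% and 20% of the cells of the 3 stages had more *S100a8* than *S100a9*, and in callus 59.1%, 47.3% and 30.9%. The order of stages was thus the same in both libraries, in small steps. Cell by cell, at 2000 UMIs each, Pearson r between the pair was 0.65 over 51 immature, 0.43 over 168 intermediate and 0.88 over 75 mature intact neutrophils, and 0.83 over 342, 0.67 over 269 and 0.95 over 78 in callus. The points of each r share a library and the depth to which they were thinned.

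Callus granulocyte-monocyte progenitors, the cells that give rise to neutrophils and monocytes and that carry the granule proteases *Elane*, *Mpo* and *Prtn3*, showed the pair appearing. Among the 239 of them the summed level was 2.28% of UMIs, but the median cell had 0.0722% and the highest 21.4%. Arranged by how many of 6 immature neutrophil markers (*Ngp*, *Camp*, *Ltf*, *Cebpe*, *Fcnb* and *Lcn2*) a cell showed, the sum of *S100a8* and *S100a9* went from 1629 CPM in 111 cells with none, to 6090 CPM in 58 cells with 1, 11860 CPM in 22 cells with 2 and 122677 CPM in 22 cells with 4. The groups with 3, 5 and 6 markers had 16, 7 and 3 cells and stood at 54817, 145373 and 143738 CPM. The fullest of these groups stayed below the 28.7% of UMIs summed over callus immature neutrophils. The emptiest summed to 1629 CPM with its fullest cells kept. That value is measured unlike the 136 to 500 CPM of callus types of other lineages, described below, which leaves such cells out. In the group with no marker the median cell held 6 UMIs of the pair, at a median depth of 33454 UMIs, and the fullest held 994. Median depths were 29418 to 36799 UMIs across these groups.

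*S100a8* UMIs outnumbered *S100a9* UMIs in callus progenitors with few immature markers. The ratio of *S100a8* to *S100a9* UMIs was 5.60 in cells with no immature marker, 2.27 with 1, 2.25 with 2, 1.23 with 3 and 1.06 with 4. Leaving out the single fullest cell of each group gave 5.82, 2.62, 2.59, 1.37 and 1.07. More *S100a8* than *S100a9* was counted in 62 cells against 33 with the reverse among those without a marker, in 48 against 4 with 1 marker, in 20 against 0 with 2 and in 17 against 5 with 4. With no marker seen, a cell held a median of 3 *S100a8* and 2 *S100a9* UMIs, so the summed ratio of 5.60 was not that of a median cell. With 1 marker the medians were 20 and 3, with 2 they were 164.5 and 8.5, with 3 they were 581 and 369.5, and with 4 they were 1715.5 and 1803.5. Of the 10 intact progenitors, the 7 with no marker gave 21 *S100a8* and 8 *S100a9* UMIs, with 3 cells leaning each way and a ratio of 0.833 once the fullest cell was left out. Single cells with 1 and 2 markers had 651 and 266 *S100a8* UMIs and 84 and 48 *S100a9* UMIs, and the cell with 4 markers had 1652 and 1435. Cells here were ordered by their other neutrophil genes, so time itself was not observed.

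**Figure D2:**
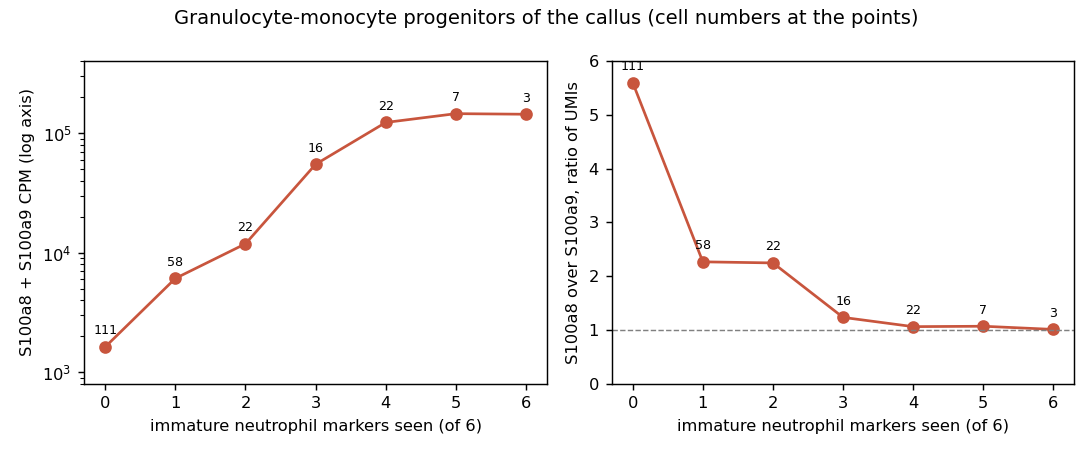
Callus granulocyte-monocyte progenitors by the number of immature neutrophil markers seen (horizontal axis, with cell numbers): the summed *S100a8* and *S100a9* level in CPM on a logarithmic axis and the ratio of *S100a8* to *S100a9* UMIs. The level goes from 1629 to 143738 CPM while the ratio goes from 5.60 to 1.01.

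*S100a10* went the other way in the same cells. Its level was 255 CPM in progenitors with no immature marker, 152 with 1, 61.3 with 2, 3.99 with 3 and 9.03 with 4, and it was seen in 93 of 111, 42 of 58, 8 of 22, 1 of 16 and 3 of 22 cells. The gene was thus seen in most progenitors with 0 or 1 immature marker and in a minority of those with 2 to 4, at like depth. Immature neutrophils then had 1 *S100a10* UMI in 51 intact cells (1.57 CPM, 0.0398 to 8.77) and 61 in 345 callus cells (11.1 CPM, 8.47 to 14.2), 19 of the 61 in 1 cell, and mature neutrophils had 0 and 2. *S100a10* in callus progenitors as a whole was 163 CPM (154 to 172). Calprotectin transcripts took at most 38.7% of the UMIs of a neutrophil stage, and the CPM of every other gene is lowered by no more than that share. *S100a11*, by contrast, stood at 743, 921, 1149, 1444 and 1541 CPM over the same 5 groups.

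*S100a6* and *S100a11* were higher at each later neutrophil stage. *S100a6* was 1348 CPM (1259 to 1442) in immature, 7133 (6976 to 7293) in intermediate and 14182 (13735 to 14640) in mature neutrophils of the intact library, and 610 (590 to 631), 5747 (5642 to 5853) and 12177 (11778 to 12586) in callus. No interval overlapped another within a library. Mature cells thus had 10.5 times (9.76 to 11.3) and 19.96 times (19.0 to 20.9) the immature level. *S100a11* was 1867, 4350 and 7238 CPM in the intact library, 3.88 times higher in mature than immature cells (3.60 to 4.17), and 1464, 3572 and 8008 CPM in callus, 5.47 times higher (5.22 to 5.73). Across all genes with enough UMIs, 53.1% in the intact library and 60.3% in callus differed at least 2-fold between these stages, and 3 of 5 and 5 of 8 S100 genes did, so a 2-fold difference was common between these stages.

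Finer steps by mature markers, which also define the stages, gave the same order. Over all callus neutrophils sorted by how many of 6 mature markers (*Cxcr2*, *Retnlg*, *Mmp8*, *Csf3r*, *Mmp9* and *Il1b*) they showed, from 0 to 6, *S100a6* stood at 343, 632, 1822, 3720, 7005, 9609 and 13268 CPM, and *S100a11* at 1364, 1477, 1907, 2847, 4020, 5632 and 8048 CPM. In the intact library, cells with 3, 4, 5 and 6 markers had 5537, 8268, 11071 and 13617 CPM of *S100a6*. Each step was higher than the one before for both genes in callus. Depth was lower alongside, from a median of 17056 UMIs with no mature marker to 3456 with all 6. The part of depth in these levels was not tested. Sorted by immature markers, cells with 1, 2 and 3 had 13624, 15807 and 12722 CPM of *S100a6* in the intact library and 9536, 14862 and 11210 CPM in callus. For *S100a11* they had 6857, 7174 and 6437 CPM and 7466, 8136 and 5249 CPM. Cells with 1 immature marker were thus below those with 2, and both genes were lower at each step from 2 markers on. At 2000 UMIs per cell *S100a6* was seen in 64.7%, 93.5% and 98.7% of immature, intermediate and mature intact cells and in 50%, 94.1% and 98.7% in callus.

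*S100a13* and *S100a1* ran against *S100a6*. *S100a13* was 145 CPM in immature and 41.0 CPM in mature intact neutrophils, a ratio of 0.283 (0.137 to 0.531), and 177 and 72.6 CPM in callus, a ratio of 0.411 (0.253 to 0.632). *S100a1* gave 16 UMIs in immature and 0 in mature intact neutrophils, and 405 (73.5 CPM) and 1 (3.46 CPM) in callus, a ratio of 0.0470 (0.00119 to 0.264). *S100a1* was 133 CPM (125 to 141) in callus progenitors, so its order was progenitor, immature, intermediate (17.0 CPM) and mature. *S100a4* did not exceed 10.4 CPM at any neutrophil stage, and *S100b* and *S100a16* gave at most 3 UMIs at each.

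**Figure D3:**
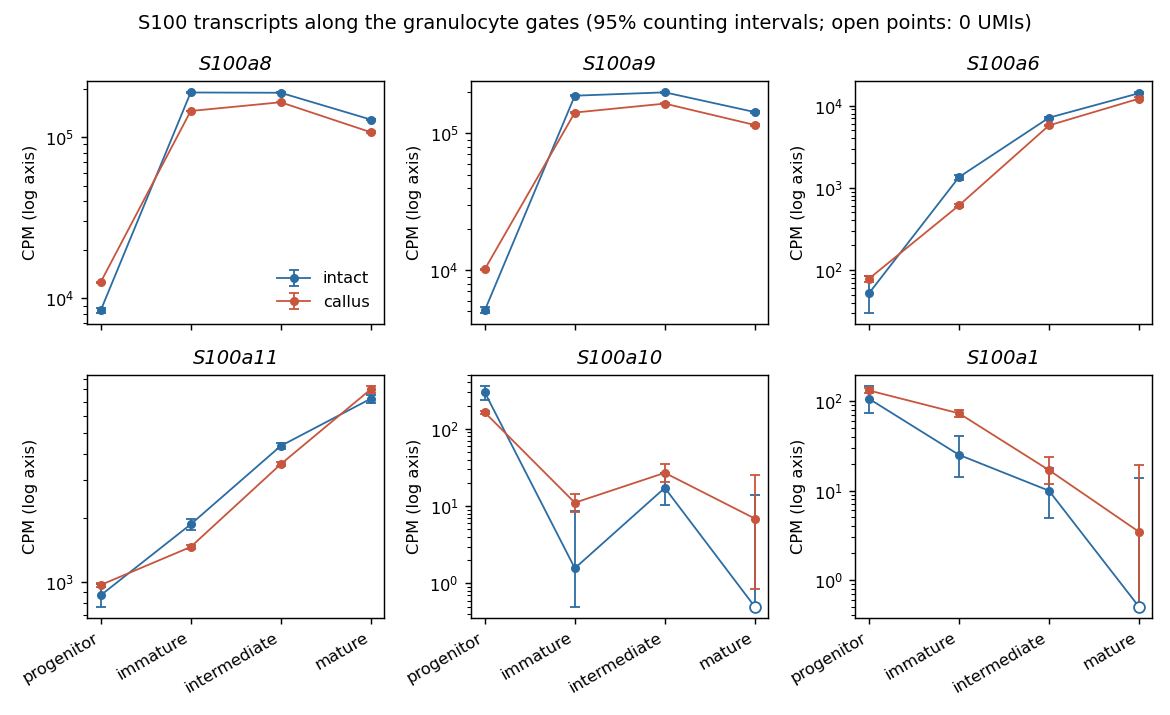
Levels of 6 S100 genes in CPM (logarithmic axes) in granulocyte-monocyte progenitors and in immature, intermediate and mature neutrophils of both libraries, with exact Poisson 95% intervals and open points for 0 UMIs. *S100a6* and *S100a11* climb at each neutrophil stage, and *S100a10* lies below 30 CPM at every neutrophil stage. *S100a8* and *S100a9* are far higher in neutrophils than in progenitors and lower in mature than in immature cells. The intact progenitor points rest on 10 cells.

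*S100a4*, the gene used as a fibroblast marker, was a gene of monocytes and macrophages in these libraries. Monocytes held 2305 CPM (2164 to 2453) of it in the intact library and 2321 CPM (2267 to 2377) in callus. *Pi16*-type fibroblasts held 95.9 CPM (81.3 to 112) when intact and 157 CPM (135 to 182) in callus. The monocyte level was higher by 4.59 and 3.88 on the log2 scale. At 2000 UMIs per cell, *S100a4* was seen in 46 of 47 intact and 304 of 320 callus monocytes (97.9% and 95%), and in 23 of 202 and 20 of 133 *Pi16*-type fibroblasts (11.4%, exact 95% interval 7.36 to 16.6, and 15.0%, 9.43 to 22.3). B cells, taken as a type that should lack it, showed it in 0.429% and 1.83%, so the fibroblast share lay above that background. Without thinning the shares were 100% and 98.5% in monocytes and 21.4% and 31.5% in these fibroblasts. Monocytes, macrophages and dendritic cells held 56.4% and 50.1% of all *S100a4* UMIs, ungated cells 25.2% and 30.9%, and mesenchymal cells 14.1% and 1.95%. Mesenchymal cells were 23.9% of kept intact cells and 8.32% of kept callus cells.

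Other mononuclear cells filled in the order. Macrophages had 2330 CPM (2036 to 2655) of *S100a4* in the intact library, not apart from monocytes, and 1411 CPM (1300 to 1528) in callus, below them. Callus dendritic cells had 1660 CPM (1491 to 1844). T cells had 401 CPM (289 to 542) and 826 CPM (747 to 912). The 8 callus osteoclasts, whose median depth was 36910.5 UMIs and which fall short of the 20 cells asked of other types, had the highest *S100a4* value of the types described here, 5044 CPM (4780 to 5318). With Leiden clusters in place of the gates, the highest callus level lay in the cluster named osteoblast. That cluster held 61 cells, of which 39 had been placed by the gates and 28 of these as osteoblasts. Within macrophages and T cells the gene was unevenly spread: 3 of 22 intact macrophages held at least 50% of the *S100a4* UMIs, as did 7 of 78 in callus, and 2 of 22 and 5 of 77 T cells. In monocytes it took 14 of 48 and 101 of 323 cells. Monocytes were thus alike in *S100a4*, while macrophages and T cells held a few rich cells among many poor ones.

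*S100a4*, *S100a6* and *S100a10* were also compared cell by cell. Over 67 callus macrophages thinned to 2000 UMIs, Pearson r was 0.88 between *S100a4* and *S100a6*, 0.75 between *S100a6* and *S100a10*, and 0.66 between *S100a4* and *S100a10*. Over 76 callus T cells, r was 0.71 between *S100a4* and *S100a6* and 0.57 between *S100a6* and *S100a10*. Monocytes gave lower values: r between *S100a4* and *S100a6* was 0.28 over 47 intact and 0.50 over 320 callus monocytes, and between *S100a4* and *S100a10* it was 0.03 and 0.20. The cells in each r share 1 library, and these are descriptions without a test. Monocytes of the intact library held 4012 CPM (3825 to 4205) of *S100a6* and those of callus 2834 CPM (2774 to 2896), seen at 2000 UMIs in 47 of 47 and 312 of 320 cells, and macrophages held 5022 and 2080.5 CPM.

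In fibroblasts *S100a6* led the family. *Pi16*-type fibroblasts, a fascia and adventitia type of cell marked by *Pi16* and *Dpp4*, held 6623 CPM (6497 to 6750) of it in the intact library and 5393 CPM (5258 to 5531) in callus, and it was seen in 202 of 202 and 131 of 133 of them at 2000 UMIs. *S100a10* followed with 1551 CPM (1491 to 1614) and 1414 CPM (1345 to 1485), and *S100a11* with 1434 CPM (1376 to 1494) and 1221 CPM (1157 to 1287). All of these were far above B cells, which had 50.5 and 47.1 CPM of *S100a6* and 140 and 137 CPM of *S100a11*. B cells did carry *S100a10*, at 415 CPM (373 to 461) and 311 CPM (290 to 332) and in 49.8% and 46.9% of cells at 2000 UMIs. That share was well above the 0.585% of immature callus neutrophils with a UMI of it.

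*S100a10* was also found in lymphocytes, myeloid cells and endothelium. T cells had 1030 CPM (845 to 1244) in the intact library and 1757 CPM (1640 to 1879) in callus, callus NK cells 1308 CPM (1208 to 1414), monocytes 1163 and 1036 CPM, and macrophages 1856 CPM (1595 to 2148) and 879 CPM (792 to 973). Endothelial cells had 710 CPM (536 to 921) and 649 CPM (578 to 728). The ranges over both libraries overlapped among *Pi16*-type fibroblasts, T cells and macrophages, so no order could be read among these 3, while *Pi16*-type fibroblasts stood above other fibroblasts (1207 and 1244 CPM) in both libraries. Callus osteoblasts (116 CPM, 91.8 to 145) and erythroid cells (8.94 CPM, 3.28 to 19.5) were low.

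*Pi16*-type and *Col15a1*-type fibroblasts of the intact library could be compared within the library. Over all genes 21.0% were at least 2-fold apart, and 5 of the 10 S100 genes were. *S100a4* was 95.9 CPM in *Pi16*-type and 343 CPM (279 to 416) in *Col15a1*-type cells, a ratio of 0.280 (0.216 to 0.363), and was seen at 2000 UMIs in 11.4% and 28.9% of cells. *S100a16* was 369 CPM (340 to 400) against 151 CPM (110 to 202), a ratio of 2.44 (1.80 to 3.39). These 2 genes thus lay in opposite directions, while the interval for *S100a6* included 1 (6623 and 6469 CPM, ratio 1.02, 0.975 to 1.07). *S100a11* (ratio 1.63, 1.43 to 1.86) and *S100a13* (1.31, 1.12 to 1.53) were moderately higher in *Pi16*-type cells. *S100b* rested on 24 and 10 UMIs and its interval (0.206 to 1.05) reached 1. *S100a8* and *S100a9* also differed (5.47 and 5.76), but 1 *Pi16*-type cell held 83.8% of its type's *S100a8* UMIs, and without such cells 3 genes were apart in place of 5.

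*S100a16* was a gene of fibroblasts and endothelium, while *S100a13* was highest there but spread more widely. Mesenchymal cells, 23.9% of kept intact and 8.32% of kept callus cells, held 66.0% and 17.5% of the *S100a13* UMIs. In callus neutrophils held 21.2% and progenitors 18.9%. Other fibroblasts had 569 CPM of *S100a13* in the intact library and 293 CPM in callus, where T cells had 262 CPM. *Pi16*-type fibroblasts of the intact and callus libraries carried *S100a13* at 843 CPM (799 to 890) and 632 CPM (586 to 681), endothelial cells at 545 CPM (394 to 734) and 604 CPM (534 to 679), against 308 and 224 CPM in monocytes. For *S100a16* the *Pi16*-type levels were 369 and 317 CPM (284 to 351), with 329 CPM (215 to 483) and 394 CPM (338 to 456) in endothelium. Callus BMSC had 172 CPM (121 to 235) of *S100a16* and osteoblasts 109 CPM (85.1 to 137). In blood *S100a16* was next to absent: it gave 0 UMIs in 254 intact and 2 in 519 callus B cells, 1 and 1 in monocytes, and was seen at 2000 UMIs in 0 of 493 callus B cells, against 49.5% and 45.1% of *Pi16*-type fibroblasts and 48.8% of callus endothelial cells. A count of 0 among 254 intact B cells still allows up to 4.33 CPM.

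*S100b* gave the fewest UMIs of the 10 in each library. There were 33 in 36 callus BMSC, 149 CPM (103 to 209), and it was seen in 8 of 32 of them at 2000 UMIs (25.0%, 11.5 to 43.4). *Pi16*-type fibroblasts had 15.0 CPM (9.64 to 22.4) of *S100b* when intact and 15.2 CPM (8.86 to 24.3) in callus, and in endothelial cells and B cells of both libraries it gave 0 UMIs. All of the *S100b* UMIs of the intact library and 69.0% of those of callus lay in mesenchymal cells. *S100a1*, the striated muscle member, was highest in myofibres, at 260 CPM (206 to 323) and 231 CPM (199 to 268), seen at 2000 UMIs in 16 of 45 and 49 of 119 (35.6% and 41.2%). Macrophages (113 and 125 CPM), endothelial cells (139 CPM, 69.6 to 249, and 91.8 CPM, 66.2 to 124) and callus progenitors (133 CPM) followed. Because progenitors were numerous and deep, 42.8% of the callus *S100a1* UMIs lay in them and 7.19% in myofibres. T cells had 0 UMIs in both libraries, and 7.66 CPM is the upper limit in callus.

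Calprotectin transcripts were also seen in cells outside the granulocyte lineage, and 2 patterns were described. In all 9 intact and 14 callus types of at least 20 cells outside the granulocyte lineage, a cell had a median of 0 to 1 *S100a8* and *S100a9* UMIs in the intact library and 1 to 3 in callus. Leaving out cells of at least 100 such UMIs, the mean ran from 0.571 per cell in endothelial cells to 1.06 in monocytes of the intact library, and from 1.49 in endothelial cells to 3.32 in monocytes of callus, although the median depth of the types ran from 2463 to 8262 and from 1997 to 25358.5 UMIs. In callus monocytes the mean was 2.41 in the shallower cells and 4.24 in the deeper ones. Over the cells of all these types with fewer than 100 such UMIs, the *S100a8* to *S100a9* ratio was 0.939 and 1.13. It was 0.961 and 1.02 in the neutrophils of the same library. By callus type the ratio ran from 0.647 in endothelial cells to 1.69 in monocytes. Across the 729 and 1815 cells, Pearson r between depth and this count was 0.14 and 0.19, given as a description since both come from the same cells.

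Shares of cells with a UMI were also counted. At 2000 UMIs, *S100a8* was seen in 23.2% (17.9 to 29.1) of intact and 32.0% (27.9 to 36.4) of callus B cells, in 11.4% and 21.1% of *Pi16*-type fibroblasts, in 10.6% and 25.3% of monocytes and in 37.8% of callus myofibres. Unthinned, the shares were 28.7% and 51.1% of B cells, 32.6% and 55.5% of *Pi16*-type fibroblasts and 41.7% and 66.3% of monocytes. These types include cells not known to express the gene, and the source of these UMIs was not tested in any type. Neutrophils stood at 100% at all 3 stages but for *S100a9* in 77 of 78 mature callus cells. Callus progenitors, at 57.0% (50.4 to 63.4) for *S100a8* and 45.1% (38.7 to 51.7) for *S100a9*, stood above every type outside the granulocytes. Monocytes, which are known to carry calprotectin in other settings, stood below B cells at 2000 UMIs and, for *S100a8*, above them without thinning, with median depths of 8262 and 7775 UMIs against 2852 and 3214. Without cells of at least 100 such UMIs, the level of the pair was 118 and 368 CPM in monocytes against 202 and 302 CPM in B cells.

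The other pattern was a few cells with very many UMIs. These cells were counted over the gated types of at least 20 cells outside the granulocytes. Only 5 of 734 intact and 15 of 1830 callus cells had at least 100 *S100a8* and *S100a9* UMIs. They held 7758 of 8392 and 18266 of 21931 of such UMIs (92.4% and 83.3%). Cells with 10 to 99 UMIs numbered 1 and 18, so in callus the range between both patterns was also filled. The fullest of these gated cells were myofibres with 4131 and 5019, a callus monocyte with 1847 and a callus plasmacytoid dendritic cell with 1816. Below them were a callus macrophage with 1171, an intact *Pi16*-type fibroblast with 893, a callus erythroid cell with 862 and an intact endothelial cell with 435. The neutrophil granule genes *Camp*, *Ngp*, *Ltf*, *Lcn2* and *Retnlg* were read in the same cells. Their summed median was 905 and 238 UMIs in the high myofibres, 402 in the plasmacytoid dendritic cell and 27 in the fibroblast, but 3 and 7 in the high monocytes, against means of 0.307 to 1.33 in the other cells of types with at least 20 cells. The part of these granule transcripts in the S100 values was not tested. With these cells left out, the level of *S100a8* and *S100a9* lay between 118 and 262 CPM in intact types and between 136 and 500 CPM in callus types. Ungated cells are not in these counts. Of them, 2 of 111 intact and 17 of 457 callus cells also had at least 100 such UMIs, the fullest 3351 and 6505.

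**Figure D4:**
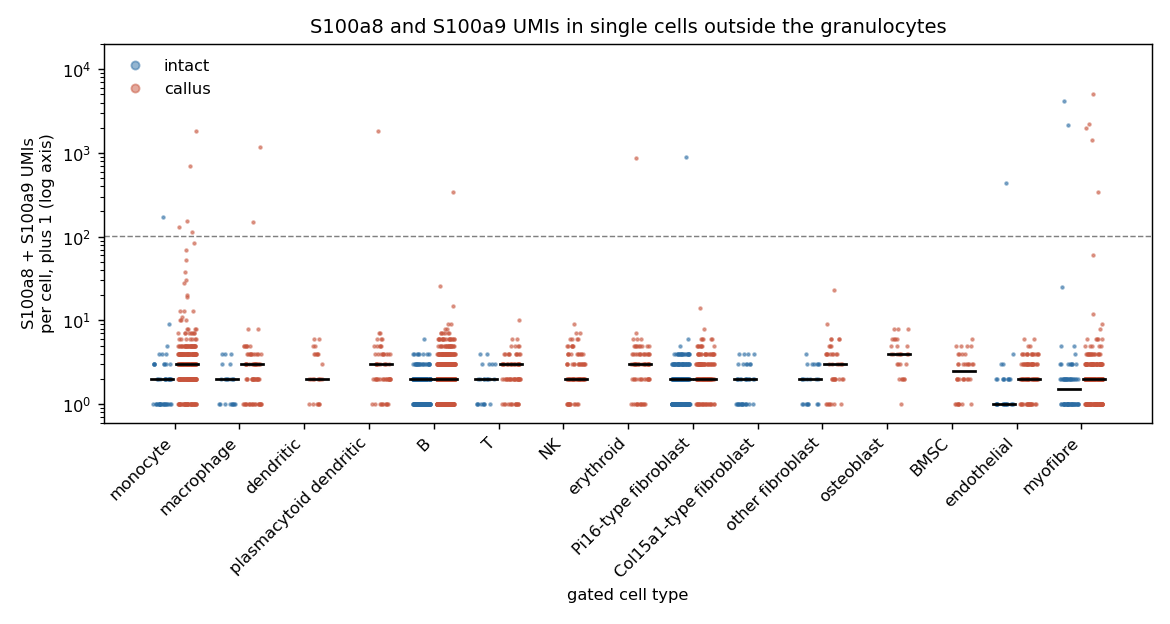
*S100a8* and *S100a9* UMIs of each cell (plus 1, logarithmic axis) by gated type and library, with black bars at the medians and a dashed line at 100 UMIs. Only gated types of at least 20 cells outside the granulocytes are drawn, without ungated cells. Most cells of each lie below 10, and 5 intact and 15 callus cells lie above the line.

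The callus library was then set against the intact library within the 11 types that had at least 20 cells in each. Of 87 gene and type pairs with enough UMIs, 16 were at least 2-fold higher and 9 at least 2-fold lower in callus. Over all genes the share that far apart ran from 6.25% in *Pi16*-type fibroblasts to 28.6% in myofibres, and is given as the background of each type below. With 1 library a condition, these are differences between 2 libraries. No S100 gene was 2-fold apart in intermediate neutrophils (0 of 7, background 13.9% of all genes), or in mature neutrophils (0 of 5, background 9.72%), and *S100a8* and *S100a9* were the only ones in *Pi16*-type fibroblasts (2 of 10, background 6.25%) and monocytes (2 of 8, background 13.7%). *S100a4* in monocytes stood at a ratio of 1.01 (0.942 to 1.08) and *S100b* in *Pi16*-type fibroblasts at 1.01 (0.509 to 1.96), the latter on 24 and 17 UMIs. *S100a6* was lower in callus in monocytes (0.706, 0.671 to 0.744) and in *Pi16*-type fibroblasts (0.814, 0.789 to 0.841), both less than 2-fold.

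In *Pi16*-type fibroblasts *S100a4* was 1.64 times higher in callus (1.31 to 2.05), *S100a1* 0.523 times (0.330 to 0.810) and *S100a13* 0.750 times (0.683 to 0.822). *S100a8* and *S100a9* stood at 0.294 and 0.377, a difference that turned round to 0.86 and 0.68 on the log2 scale in favour of callus once the single full intact cell was left out. Other fibroblasts had 1 of 8 genes apart (background 22.2%), *S100a4*, at 350 CPM (260 to 460) in the intact library and 173 CPM (137 to 216) in callus, a ratio of 0.495 (0.343 to 0.719). *S100a4* thus lay on opposite sides of 1 in *Pi16*-type and other fibroblasts, a difference that was not tested. In intact other fibroblasts 1 of 22 cells held 25 of the 51 *S100a4* UMIs (49.0%), and in callus 1 of 41 held 21 of 78 (26.9%). *S100a13* (0.514, 0.388 to 0.685) and *S100a6* (0.584, 0.540 to 0.632) were also lower in other fibroblasts of callus. This gate holds the fibroblasts placed in no subtype. Its tenocyte marker list was 994 CPM in intact and 3812 CPM in callus cells, with 6 of 7 genes higher in callus. The monocyte list was 0 and 226 CPM, with 6 of 6 higher. The *Col15a1*-type list was 2112 and 1359 CPM, with 1 of 6 higher. The part of this mix in the ratios was not tested.

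Among blood cells, immature neutrophils had 4 of 8 genes apart (background 25.8%), 3 higher and 1 lower in callus. Of the 8376 genes measured in this type, 1983 were at least 2-fold higher in callus and 180 lower. The direction of the 3 was thus that of most genes apart there. *S100a6* was lower in callus (0.452, 0.420 to 0.488) and *S100a1* higher (2.92, 1.78 to 5.16, from 16 and 405 UMIs), while *S100a4* (1 and 25 UMIs) and *S100a10* (1 and 61 UMIs) rested on a single intact UMI and on few callus cells. Beside them the progenitor marker list was 168 CPM in intact and 1674 CPM in callus immature neutrophils, with all 5 of its genes higher in callus. The mature list was 1787 and 452 CPM, although 2 of its 6 genes were higher in callus. As described above, *S100a1* was highest and *S100a6* lowest in the earliest cells of this lineage. The part of the stage mix in the difference was not tested.

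Macrophages had 4 of 8 genes apart (background 20%). *S100a6* (0.414, 0.371 to 0.464) and *S100a10* (0.474, 0.395 to 0.569) were lower in callus and *S100a4* less so (0.605, 0.519 to 0.709). For each of these genes, 3 of the 22 intact cells held at least 50% of its UMIs. In callus it took 6 of 78 cells for *S100a6* and for *S100a10*. The monocyte marker list summed to less in callus, at 3671 and 2450 CPM, although 3 of its 6 genes were higher there. The dendritic list summed to more, at 7063 and 10866 CPM, with 5 of its 7 genes higher in callus. *S100a8* and *S100a9* were 24.0 and 11.6 times higher, but 1 callus cell held 81.9% of the *S100a8* UMIs. T cells had 1 of 7 apart (background 17.8%): *S100a4* was 2.06 times higher (1.498 to 2.91), and *S100a10* (1.71, 1.39 to 2.10), *S100a6* (1.48, 1.21 to 1.84) and *S100a11* (1.49, 1.08 to 2.10) were higher by less than 2-fold. The NK marker list was 1049 CPM in intact and 1402 CPM in callus T cells. B cells had 4 of 8 apart (background 14.6%), *S100a8* (2.02, 1.61 to 2.57), *S100a9* (2.18, 1.74 to 2.76), of which 1 callus cell held 29.2% and 28.6% and without which the log2 ratios were 0.52 and 0.64, inside 2-fold, and further *S100a1* (3 and 32 UMIs) and *S100a4* (2 and 47 UMIs, 61.7% of them in 1 cell). In monocytes the 2 genes apart were *S100a8* and *S100a9* (2.14 and 4.01), with 40% and 55.1% of the callus UMIs in 1 cell. Without cells of at least 100 such UMIs, the pair still stood at 118 CPM in intact and 368 CPM in callus monocytes. The UMIs left were 30 and 664 of *S100a8* and 20 and 393 of *S100a9*.

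Myofibres had 4 of 9 genes apart, all higher in callus, against 28.6% of all genes. Of the 4315 genes measured in this type, 1103 were at least 2-fold higher in callus and 131 lower. The direction of the 4 was thus that of most genes apart in myofibres. *S100a4* gave 2 UMIs in 74 intact cells and 207 in 240 callus cells (ratio 40.5, 11.1 to 337), *S100a10* gave 2 and 171 (33.5, 9.13 to 279), *S100a6* 35 and 383 (4.29, 3.03 to 6.25) and *S100a16* 9 and 49 (2.13, 1.04 to 4.94). For each gene, the fullest 5 of the 240 callus cells held 62.3% (*S100a4*), 68.4% (*S100a10*), 58.7% (*S100a6*) and 24.5% (*S100a16*) of its UMIs. A single callus cell held 72 of the *S100a4* UMIs, and 1 held 55 of the *S100a10* UMIs. In the intact library 1 cell held 27 of the 35 *S100a6* UMIs. The ratios of *S100a4*, *S100a10* and *S100a6* thus rested mostly on a few cells. *S100a1*, whose level was highest in myofibres among the 11 types compared, had an interval that included 1 (0.891, 0.682 to 1.17). The 34 callus myofibres with *S100a4* also had 1124 CPM of the monocyte marker list and 571 CPM of the macrophage list, against 60.1 and 108 CPM in the 206 without, and 109149 against 187652 CPM of the myofibre list. Over all myofibres the monocyte list went from 26.0 CPM with 5 of 6 genes at 0 to 359 CPM with none at 0, and the macrophage list from 0 to 238 CPM. Their part in the S100 values was not tested.

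Endothelial cells had 3 of 9 genes apart, against 20.1%. *S100a8* and *S100a9* stood at 0.0459 and 0.0601, with 96.6% of the intact *S100a8* UMIs in 1 cell, and without it they were 0.30 and 0.57 higher in callus on the log2 scale. *S100a4* (0.468, 0.189 to 1.32) rested on 7 and 19 UMIs and its interval included 1. *S100a16* (1.19, 0.789 to 1.88), *S100a13* (1.11, 0.801 to 1.56) and *S100a10* (0.915, 0.686 to 1.24) were not apart.

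**Figure D5:**
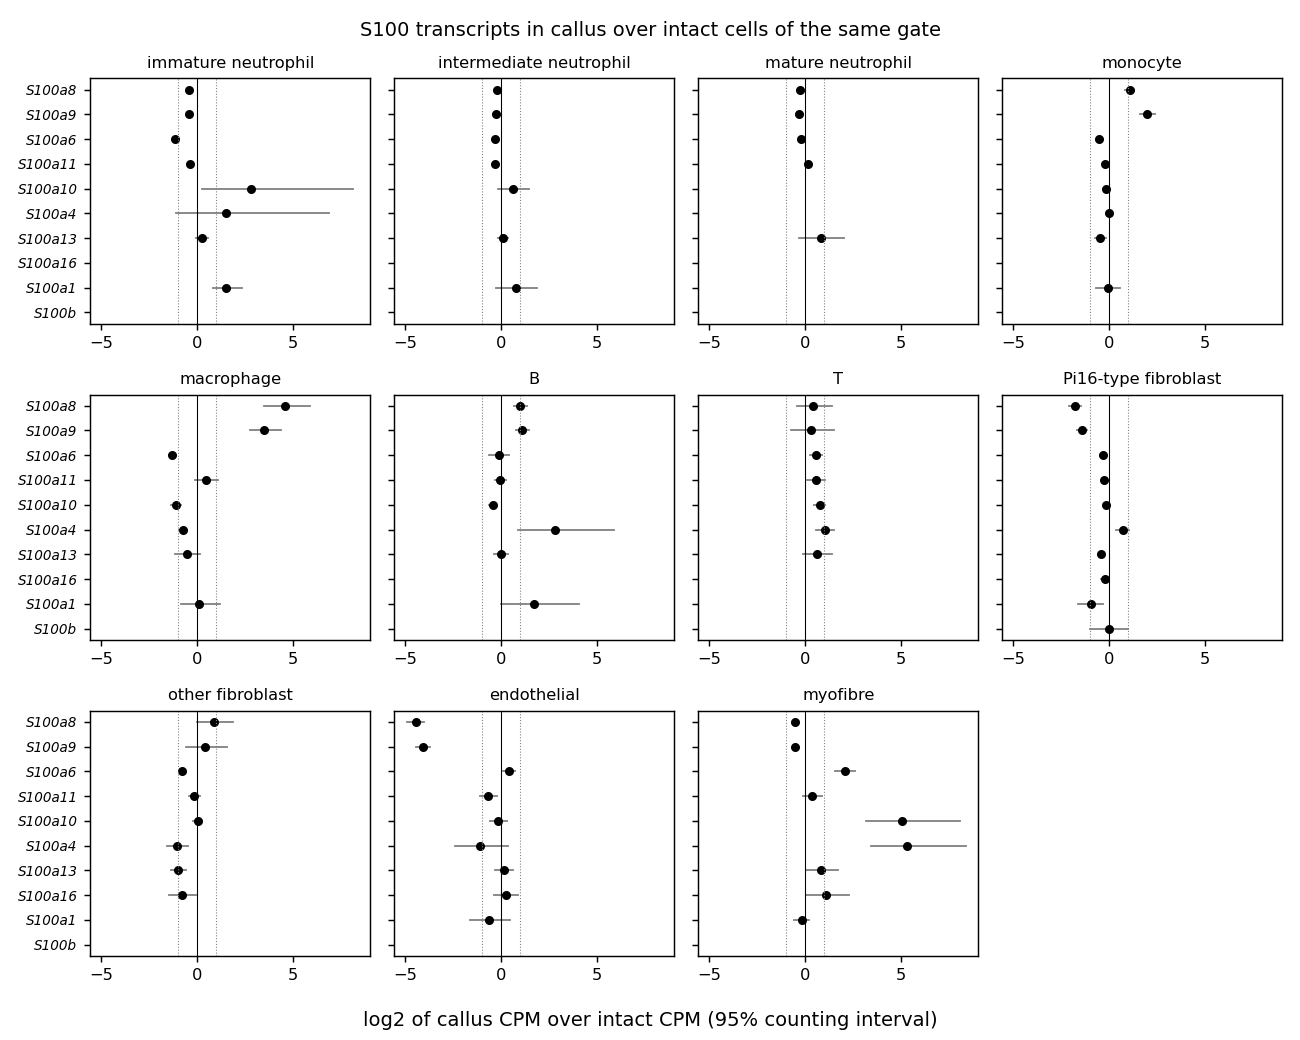
Log2 ratio of callus over intact CPM for each S100 gene with at least 20 UMIs in 11 cell types, with exact 95% counting intervals and dotted lines at 2-fold. Intermediate and mature neutrophils stay inside the lines, and the points farthest out are *S100a4* and *S100a10* in myofibres and *S100a8* and *S100a9* in macrophages and endothelial cells.

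A list of 15 partners and receptors of S100 proteins was read in the same cells. *Anxa2*, whose protein *S100a10* binds, was 1044 CPM in intact and 1137 CPM in callus mature neutrophils, its highest levels, where *S100a10* gave 0 and 2 UMIs. In *Pi16*-type fibroblasts both were present, *Anxa2* at 717 and 697 CPM. *Ahnak*, a large scaffold protein bound by the *S100a10* and annexin A2 complex, was 2424 and 2441 CPM in *Pi16*-type fibroblasts and at most 41.0 CPM in neutrophils, so its pattern was nearer to that of *S100a10* than of *Anxa2*. *Anxa1* was highest in immature and intermediate neutrophils (4425 and 3205 CPM, 3865 and 3950 CPM) and lower in mature ones (1085 and 1054 CPM), the stage where *S100a11*, which can bind it, was highest. Over all 30 groups of at least 20 cells the order of *Anxa1* was close to that of *S100a11* (Spearman rho 0.85, a description). *Myh9*, the myosin that *S100a4* binds, was 783 and 816 CPM in mature neutrophils, which lacked *S100a4*. Of the calprotectin receptors, *Ager* did not exceed 4.74 CPM and *Tlr4* 59.6 CPM in any type of at least 20 cells. *Cd36*, which is also a fatty acid carrier, was 4334 and 2029 CPM in endothelial cells and 1072 and 277 CPM in macrophages. *Bsg* was highest in callus erythroid cells (1070 CPM) and lay between 17.3 and 423 CPM in the other types. *Fgf1* was highest in *Pi16*-type fibroblasts (38.2 and 61.7 CPM), also the type with the most *S100a13*, and *Syt1* gave 0 UMIs. *Pygm* and *Ryr1*, muscle partners of *S100a1*, were highest in myofibres (799 and 698 CPM, 107 and 193 CPM).

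Between libraries, few partners were apart outside myofibres and macrophages. In *Pi16*-type fibroblasts 0 of 10 measured partners (6.25% of all genes), in monocytes 0 of 11 (13.7%), in intermediate neutrophils 0 of 9 (13.9%) and in mature ones 0 of 4 (9.72%) were 2-fold apart. In myofibres 5 of 11 were higher and 1 lower (28.6% of all genes apart), in macrophages 4 of 9 were lower and none higher (20%), in B cells 2 of 8 were higher (14.6%), and in T cells 1 of 7 was lower (17.8%). Immature neutrophils and other fibroblasts had 1 higher of 9 and of 8 (25.8% and 22.2%), and endothelial cells 1 in each direction of 9 (20.1%). The median of the measured S100 genes on the log2 scale was -0.26 in *Pi16*-type fibroblasts against 0.03 over all genes, and 0.86 in myofibres against 0.23. From immature to mature neutrophils 2 partners were higher and 3 lower of 6 in the intact library (53.1% of all genes apart) and 4 and 3 of 9 in callus (60.3%). Between the intact fibroblast types 2 were higher in *Pi16*-type cells and 1 lower of 10 (21.0%).

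Likeness over the 30 groups of at least 20 cells named the neighbours of each gene, measured as Pearson r of log2(CPM + 10). These are descriptions over groups that share libraries and ancestry. *S100a8* and *S100a9* were each other's nearest gene (r 0.99), followed by *Wfdc21* (0.97) and *Lcn2* (0.96 and 0.95), *Lcn2* being one of the immature neutrophil markers used to place cells. *S100a6* was nearest to *Fam129a* (0.92), *Anxa2* (0.92) and *Xdh* (0.88). *S100a10* was nearest to *Crip1* (0.96), *Zfp277* (0.90) and *Ahnak* (0.90), and *S100a4* to *Crip1* (0.85), *Npc2* (0.85) and *Cx3cr1* (0.83). *S100a11* had *Dhrs7* (0.92) and *Lasp1* (0.87), and *S100a13* had *Sptbn1* (0.89) and *Vim* (0.88). *S100a16* had *Amotl1* (0.97), *Nckap1* (0.97) and *Fermt2* (0.97), *S100b* had *Plekhh2* (0.99), *Pdgfrb* (0.97) and *Ccn5* (0.96), and *S100a1* had *Slc37a4* (0.83).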

How the data were processed

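Cells of an intact and a fracture callus tissue pool were captured with a 10x 3′ V3 kit, 1 library each. Per the matrix header the authors' counting used Cell Ranger 6.0.0, and the submitters' processing notes name the build mm10. The deposited files hold raw UMI counts per gene and barcode, not normalized. A cell was kept when 500 or more genes were detected and mitochondrial genes made up no more than 10% of its UMIs, which left 1207 intact and 3295 callus cells, with python 3.11.15, scipy 1.17.1 and scanpy 1.11.5. Doublets were scored with Scrublet, which called 3 and 4 cells and was not used in the main values.

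The members, the marker lists and the partner list were chosen with earlier results of these data known. Each cell was thinned to 2000 UMIs and placed in a type when it showed at least 50% of the markers with a lead of 15% over other lineages. A cell with at least 50% of both neutrophil lists was called intermediate. This scoring, and the limit of 100 *S100a8* and *S100a9* UMIs, were set after the data were seen. Gene counts were summed per type and library as CPM with exact Poisson intervals, shares carry exact Clopper-Pearson intervals, and ratios carry exact conditional binomial intervals, all at 95% and all covering counting error only. Ratios were formed for genes of at least 20 UMIs in both groups together and called apart at 2-fold. With 1 library per condition no test was made, and Benjamini-Hochberg adjustment does not apply. Alternatives changed the cell filter, the markers needed, the grouping (Leiden clusters), the doublets, the fold, the depth and the UMIs in the total. All genes besides the members and lists were used for the backgrounds only. The scripts were checked on simulated data, which showed limits. Of unchanged genes, 8.58% were called 2-fold apart in immature neutrophils and 2.46% in *Pi16*-type fibroblasts. Of genes lowered 4-fold, 69% and 90% were called, and of genes raised 4-fold 98% and 100%. Of simulated mature neutrophils 81.3% were gated as drawn and 18.7% as another type, while 98.1% of B cells and 99.5% of *Pi16*-type fibroblasts were gated as drawn.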

Additional observations from a re-analysis of the deposited data

Results flagged for a closer look

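Several S100 genes were at least 2-fold higher in callus in one cell type and at least 2-fold lower in another, and none of these differences between types was tested. On the log2 scale, *S100a4* stood at 5.34 in myofibres and -1.09 in endothelial cells, *S100a6* at 2.10 in myofibres and -1.27 in macrophages, and *S100a10* at 5.07 in myofibres and -1.08 in macrophages. *S100a8* stood at 4.58 in macrophages and -4.45 in endothelial cells, and *S100a9* at 3.54 and -4.06, each with most UMIs of the higher library in 1 cell. The endothelial *S100a4* value rests on 7 and 19 UMIs. The myofibre values of *S100a4* and *S100a10* rest on 2 intact UMIs each. In callus myofibres the fullest cell held 34.8% of the *S100a4*, 32.2% of the *S100a10* and 19.3% of the *S100a6* UMIs.

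S100 genes outside the 10 were looked at as counts. *S100a2* gave 13 UMIs in the callus library and 1 in the intact one, *S100a3* gave 12 and 1, and *S100a5* gave 29 and 0. Of the *S100a5* UMIs, 19 lay in 1 of the 6 callus cells gated as tenocytes. Of the *S100a2* UMIs in callus, 11 lay in neutrophils of the 3 stages. *S100a7a* gave 8 UMIs in the intact library and 10 in callus, *S100g* 2 and 2, *S100a14* 1 and 0, and *S100z* none.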

How the results depend on the processing

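The stage and type ratios kept their direction in all 159 alternatives, although 64 of these values lay outside the counting interval of the value given. *S100a6* in mature over immature neutrophils lay between 2.15 and 3.89 (intact) and 3.59 and 4.41 (callus) on the log2 scale. The 159 include the setting without high cells outside the granulocytes. That setting removed no neutrophil, so its mature over immature ratios could not have changed and say nothing on stability. Of 282 alternatives to the callus over intact ratios apart by 2-fold, 244 stayed past 2-fold, 24 fell inside it and 14 turned round. The 244 include the settings with a 1.5-fold limit and with at least 50 UMIs. These left the cells and the ratios themselves unchanged, so their alternatives could not have come out otherwise and say nothing on stability. Turned round were, on the log2 scale: with 1 more marker per cell, *S100a10* in immature neutrophils (-0.65); with Leiden clusters, *S100a4* in immature neutrophils (-2.23), *S100a8* and *S100a9* in Pi16-type fibroblasts (1.02 and 0.74) and *S100a4*, *S100a8* and *S100a9* in endothelial cells (0.040, 1.46 and 1.20); without the highest Scrublet scores, *S100a8* and *S100a9* in Pi16-type fibroblasts (0.95 and 0.67); with markers sought in all UMIs, *S100a4* in endothelial cells (0.13); and without cells of at least 100 *S100a8* and *S100a9* UMIs, both genes in Pi16-type fibroblasts (0.86 and 0.68) and in endothelial cells (0.30 and 0.57). The last 2 settings were added after the data were seen, and the causes were not tested.

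Against 16 higher and 9 lower ratios, Leiden clusters gave 26 and 3, a 1.5-fold limit gave 16 lower, markers in all UMIs 5 lower of 82, and leaving out the high cells 4 lower. That last setting left 3 of 5 genes apart between the fibroblast types. The share of all genes apart was not taken under these settings. The *S100a8* and *S100a9* level outside the granulocyte and monocyte lineages was 2178 CPM (intact) and 1829 CPM (callus). It was 2280 and 1945 with the stricter cell filter, 2457 and 2353 with 1 more marker, 1563 and 4563 with Leiden clusters, 1992 and 690 without high Scrublet scores, 1693 and 1085 with markers in all UMIs, 219 and 459 in the shallower cells of each type, 3115 and 2352 in the deeper cells (split at the type's median), and 165 and 281 without the high cells, where UMIs per cell were 0.866 and 1.75 against 11.5 and 11.4. The type with the highest level of a gene changed in 17 cases. Among them were intact *S100a4* from macrophages to monocytes under 6 settings and callus *S100a4* from monocytes to the mixed Leiden cluster named osteoblast. Of 280 shares of cells, 73 reached 50%, 48 with 2 UMIs required and 139 without thinning. Of 30 likeness genes, 9 were shared with Spearman rho and 15 with a pseudocount of 1 CPM.

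No paired analysis was possible because each condition is 1 library. Low counts limit *S100b*, *S100a16* in blood, *S100a4* in neutrophils, and *S100a1* in B cells, T cells and mature neutrophils.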
